A study of Mus musculus with 6 samples.

Results

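The transcripts of the Hippo pathway kinases LATS1 and LATS2, of the co-activators YAP and TAZ, of 3 TEAD transcription factors and of 3 genes that YAP and TEAD activate were examined in colon epithelium of mice given atorvastatin or vehicle. The 10 genes, *Yap1*, *Wwtr1*, *Tead1*, *Tead2*, *Tead3*, *Lats1*, *Lats2*, *Amotl2*, *Ccn1* and *Ccn2*, were chosen by symbol, and all 10 were found among the 52550 genes listed. The 3 atorvastatin libraries came from male Apc Min/+ mice given atorvastatin at 20 mg/kg, and the 3 control libraries from male Apc Min/+ mice given 2% Tween 80, both by oral gavage on alternate days at 5 to 6 weeks of age. Every library therefore carries the Min allele, which truncates the tumour suppressor *Apc* on 1 of its copies, and there is no group with intact *Apc*. Atorvastatin is a statin, which blocks the enzyme that makes mevalonate, and the comparison asks which transcripts differ in epithelium exposed to it. The labels do not say how long the gavage went on, whether adenomas were part of the isolate, or whether each library is a separate animal, so p-values measure the spread between these libraries only.

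In the Hippo pathway, the kinases MST1 and MST2 activate LATS1 and LATS2, which phosphorylate YAP and its relative TAZ and hold them out of the nucleus. YAP and TAZ that escape this enter the nucleus, bind a TEAD factor and switch on target genes such as *Ccn1* and *Ccn2*; among the targets are also *Lats2* and *Amotl2*, whose products restrain YAP in turn. The mevalonate pathway supports YAP activity, and in cultured cells statins lower nuclear YAP. In the gut YAP is known for its part in regeneration after injury. Much of this control acts on protein phosphorylation and location, which transcript levels do not measure.

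No gene of the 10 passed the test between atorvastatin and control. The transcripts of *Yap1* and *Lats1*, the most abundant co-activator and kinase, differed between the group means by -1.66% and 0.686%. Means were lower with atorvastatin for *Ccn2* (-30.0%), *Amotl2* (-26.8%), *Lats2* (-18.2%), *Wwtr1* (-11.7%) and *Ccn1* (-9.53%). They were higher for *Tead2* (68.1%), *Tead1* (8.74%) and *Tead3* (7.2%). Of the 10, 6 passed the filter of 1 FPKM in 3 libraries and entered limma's test, and 0 of these 6 had an adjusted p under 0.05, where 0.404% of the 11644 genes tested did. At an unadjusted p under 0.05 there was 1, *Amotl2*, where 12% of all genes tested were under that value. The median log2 fold change of the 6 was -0.08, against 0.02 over all genes tested. *Wwtr1*, *Tead1*, *Tead2* and *Ccn2* lay under the filter, and for them the values below are given beside a fit with no filter. That fit took in 28981 genes, of which 0.0069% had an adjusted p under 0.05 and 7.7% an unadjusted one, and none of these 4 passed it. Groups did not overlap for 1 of the 6 tested genes, *Amotl2*, against 18.1% of all genes tested. They also did not overlap for 1 of the 4 genes under the filter, *Tead2*. Among genes under the filter that were above 0 somewhere, 9.44% did not overlap, and among those averaging 0.2 FPKM or more the share was 15.5% (9.02% higher and 6.51% lower with atorvastatin).

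**Figure D1:**
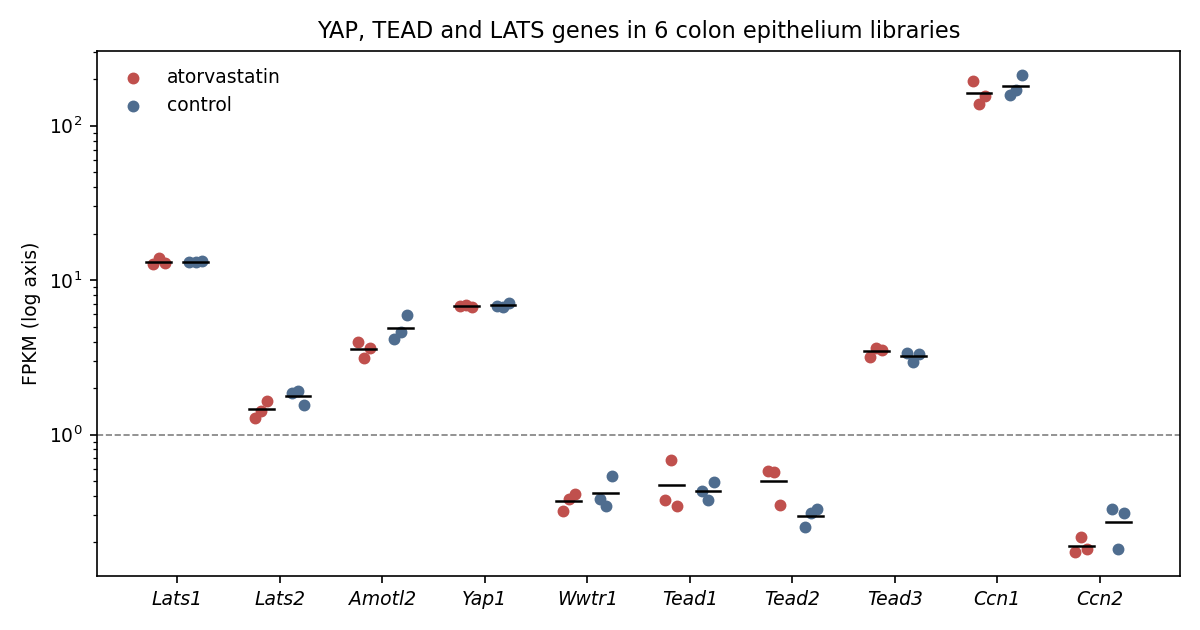
FPKM on a log axis for each of the 10 genes, with 1 point per library, atorvastatin left (red) and control right (blue), and a black line at the mean of 3 libraries; the dashed line is 1 FPKM. *Ccn1* lies near 172 FPKM, *Lats1* and *Yap1* barely spread, and the groups do not overlap for *Amotl2* and *Tead2*.

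The libraries matched their labels for tissue. The 10 colon epithelium markers were all present, with *Krt8*, a keratin of simple epithelium, at 2625 to 2871 FPKM and *Epcam*, an epithelial adhesion molecule, at 479.1 to 565.5 FPKM. Their fold changes were negative for 8 and positive for 2, with a median of -0.06, against 0.02 over all genes tested. None of them passed limma's test. The *Krt8* values did not overlap and were lower with atorvastatin, as in 6.05% of the genes tested. The 8 fibroblast markers summed to 2.34 to 3.23 FPKM with atorvastatin and 2.10 to 4.27 FPKM in control, and the 6 endothelial markers to 0.416 to 0.517 FPKM with atorvastatin and 0.384 to 0.575 FPKM in control, with *Kdr* and *Cldn5* listed at 0 in all 6 libraries. The 10 leukocyte markers, none of them listed at 0 throughout, summed to 6.50 to 7.75 FPKM with atorvastatin and 8.47 to 11.5 FPKM in control, so these groups did not overlap. All 5 of them that were tested had negative fold changes, and none passed limma's test, in which *Lck*, a T cell kinase gene, had the lowest adjusted p (0.139). At an unadjusted p under 0.05 there were 3, *Lck*, *Nkg7* and *Ptprc*, all lower with atorvastatin, where 4.27% of all genes tested were lower at that value. Under the filter, *Cd3e* and *Adgre1* were lower with atorvastatin too. *Itgam* (0.663 against 0.573 FPKM), *Cd79a* (0.216 against 0.178) and *Ms4a1* (0.0634 against 0.0404) had higher means with atorvastatin than in control. FPKM totals were 407857 to 430832, and control replicate 3 was by estimate the deepest library, 1.14 times as deep as control replicate 1, while the others were at 0.997 to 1.01 times.

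The kinase genes stood at very different levels. *Lats1* (chromosome 10, 7681214 to 7716460, plus strand) had 12.8, 13.8 and 12.9 FPKM with atorvastatin and 13.02, 12.98 and 13.2 FPKM in control. The spread over all 6 libraries was a coefficient of variation of 2.64%, and the groups overlapped. The log2 fold change was 0.01 ± 0.05, with a 95% interval of -0.11 to 0.12 (limma adjusted p = 0.966). *Lats2* (chromosome 14, 57689662 to 57758388, minus strand), which is itself a target of YAP, had 1.28, 1.42 and 1.66 FPKM with atorvastatin and 1.85, 1.91 and 1.56 FPKM in control. Atorvastatin replicate 3 lay above control replicate 3, so the groups overlapped by this pair of libraries. The log2 fold change of *Lats2* was -0.18 ± 0.09, with an interval of -0.39 to 0.03 (limma adjusted p = 0.482). With a pseudocount of 0.1 it was -0.28. By FPKM, which divides by gene length, *Lats1* was 6.81 to 9.99 times as abundant as *Lats2* within a library.

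*Amotl2* (chromosome 9, 102716672 to 102733418, plus strand) encodes an angiomotin, a junction scaffold that binds YAP and keeps it out of the nucleus. It had 3.98, 3.14 and 3.63 FPKM with atorvastatin and 4.17, 4.60 and 5.90 FPKM in control. All 3 atorvastatin libraries were below all 3 control libraries, as in 6.05% of the genes tested, but the nearest pair differed by little and control replicate 3 stood well above the rest. The means were 3.58 ± 0.42 FPKM with atorvastatin and 4.89 ± 0.90 FPKM in control (n = 3 each), a difference of -26.8%. The log2 fold change was -0.36 ± 0.12, with an interval of -0.64 to -0.07, and it did not pass over all genes (limma adjusted p = 0.302). Without control replicate 3 the log2 fold change was -0.24. The leukocyte sum given above was also lower with atorvastatin. Among the control libraries it was lowest (8.47 FPKM) in replicate 3, the highest for *Amotl2*. What part leukocytes had in the *Amotl2* difference was not tested. In bulk RNA, fewer cells that express a gene and less of its RNA per cell cannot be told apart.

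The co-activators were represented almost wholly by *Yap1* (chromosome 9, 7931999 to 8004596, minus strand). It had 6.76, 6.85 and 6.66 FPKM with atorvastatin and 6.84, 6.67 and 7.10 FPKM in control, with a coefficient of variation of 2.36% over the 6 libraries, the smallest among the 10 genes. The groups overlapped, the log2 fold change was -0.02 ± 0.05, and its interval of -0.14 to 0.10 bounds the difference on both sides (limma adjusted p = 0.919). *Wwtr1* (chromosome 3, 57455649 to 57575910, minus strand), which encodes TAZ, had 0.321, 0.380 and 0.412 FPKM with atorvastatin and 0.383, 0.344 and 0.535 FPKM in control, an estimated 56 to 105 fragments per library. Its groups overlapped too (limma adjusted p = 0.846 with no filter). Within a library the FPKM of *Yap1* was 13.3 to 21.0 times that of *Wwtr1*.

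Among the TEAD factors, which bind DNA and recruit YAP, *Tead3* was the most abundant in every library. *Tead3* (chromosome 17, 28331671 to 28350817, minus strand) had 3.20, 3.61 and 3.54 FPKM with atorvastatin and 3.37, 2.96 and 3.33 FPKM in control, and the groups overlapped. Its log2 fold change was 0.08 ± 0.07, with an interval of -0.09 to 0.24 (limma adjusted p = 0.733). *Tead1* (chromosome 7, 112679318 to 112906807, plus strand) had 0.376, 0.689 and 0.344 FPKM with atorvastatin and 0.431, 0.374 and 0.491 FPKM in control. Atorvastatin replicate 2 was the highest of the 6 and the other atorvastatin libraries were within or below the control range (limma adjusted p = 0.936 with no filter).

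*Tead2* (chromosome 7, 45215753 to 45233644, plus strand) had 0.578, 0.571 and 0.352 FPKM with atorvastatin and 0.250, 0.312 and 0.331 FPKM in control. All 3 atorvastatin libraries were above all 3 control libraries, as in the 9.02% of such low genes given above. The means were 0.5 ± 0.129 FPKM with atorvastatin and 0.298 ± 0.042 FPKM in control (n = 3 each), a ratio of 1.68. These levels rest on an estimated 31 to 73 fragments per library, and the log2 fold change of 0.21 ± 0.08 did not pass (limma adjusted p = 0.622 with no filter, unadjusted p = 0.0416). Exons of *Tead2* overlap those of *Cd37*, a leukocyte gene on the other strand, at 0.276, 0.315 and 0.175 FPKM with atorvastatin and 0.296, 0.378 and 0.274 FPKM in control. With the strand setting not given, reads of the 2 genes cannot be told apart in the overlap.

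The fourth TEAD gene, *Tead4*, is not among the 10 and was read here to complete the family. The 4 genes summed to 4.88, 5.44 and 4.86 FPKM with atorvastatin and 4.96, 4.34 and 5.00 FPKM in control, so their total overlapped between the groups. *Tead3* made up 65.6% to 72.8% of that sum. The share of *Tead2* was 11.8%, 10.5% and 7.23% with atorvastatin and 5.04%, 7.18% and 6.62% in control, and the share of *Tead4* was 14.9%, 10.4% and 12.9% with atorvastatin and 18.4%, 16.0% and 17.0% in control. Neither share overlapped between the groups, with *Tead2* taking more and *Tead4* less of the total with atorvastatin. The exact permutation test gave a two-sided p = 0.1 for each, the smallest that 3 against 3 allows. Shares of 1 total are not independent of each other. *Tead4* itself had 0.725, 0.564 and 0.628 FPKM with atorvastatin and 0.914, 0.695 and 0.849 FPKM in control. By these values its groups overlapped (limma adjusted p = 0.692 with no filter). *Tead3* and *Tead1* took shares that overlapped (exact permutation p = 1.0 for both).

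The secreted matrix proteins encoded by *Ccn1* and *Ccn2*, also called *Cyr61* and *Ctgf*, are the standard readouts of YAP and TEAD. They lay at opposite ends of the 10 genes. *Ccn1* (chromosome 3, 145646976 to 145649981, minus strand) had 195, 139 and 156 FPKM with atorvastatin and 157, 170.2 and 214 FPKM in control. The groups overlapped widely, with atorvastatin replicate 1 above 2 of the control libraries. Its log2 fold change was -0.15 ± 0.15, and the interval of -0.51 to 0.22 was the widest among the 6 tested genes (limma adjusted p = 0.78). Single libraries moved this value: it was -0.02 without control replicate 3, -0.04 without atorvastatin replicate 2, -0.24 without control replicate 1 and -0.28 without atorvastatin replicate 1. *Ccn2* (chromosome 10, 24595442 to 24598683, plus strand) had 0.174, 0.217 and 0.182 FPKM with atorvastatin and 0.328, 0.182 and 0.310 FPKM in control, an estimated 16 to 32 fragments per library. Control replicate 2 lay among the atorvastatin libraries while the other control libraries were higher (limma adjusted p = 0.775 with no filter). *Ccn1* is also an immediate early gene, one that cells switch on within minutes of a stimulus such as tissue dissociation.

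**Figure D2:**
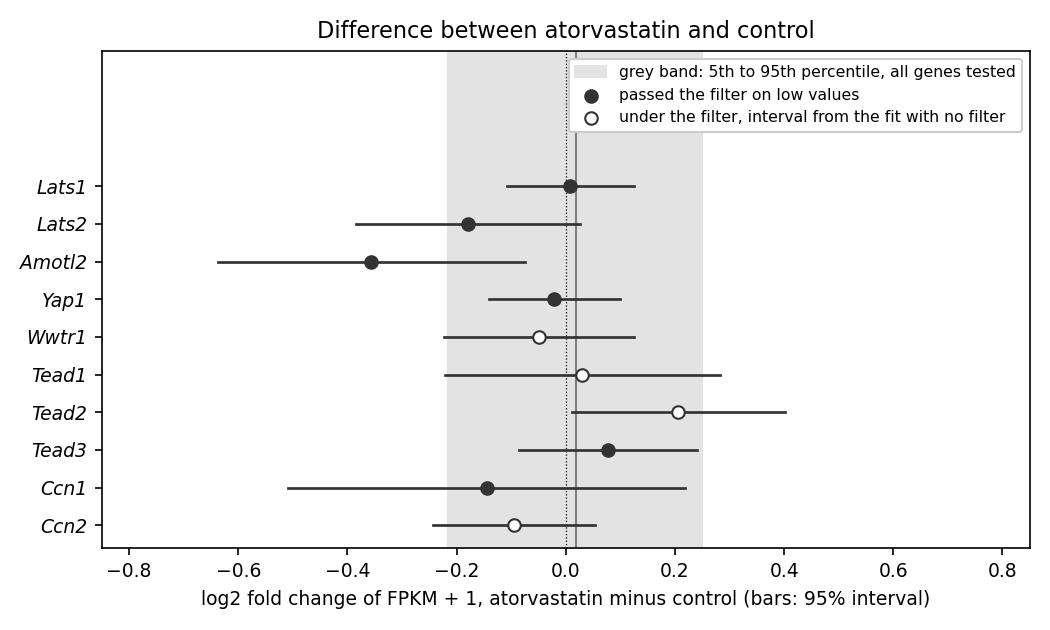
Log2 fold change of FPKM + 1 (atorvastatin minus control) for each of the 10 genes, with 95% intervals from limma; filled points passed the filter on low values, open points did not. The grey band spans the 5th to 95th percentile of all genes tested (-0.22 to 0.25), with the median as a vertical line, and *Amotl2* at -0.36 lies outside it.

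By mean FPKM over the 6 libraries the order was *Ccn1* (172), *Lats1* (13.1), *Yap1* (6.81), *Amotl2* (4.24), *Tead3* (3.33), *Lats2* (1.61), *Tead1* (0.451), *Tead2* (0.399), *Wwtr1* (0.396) and *Ccn2* (0.232). The ranges of neighbours in this order did not overlap down to *Amotl2* and again between *Tead3*, *Lats2* and *Tead1*. *Amotl2* and *Tead3* overlapped, with *Amotl2* higher in 5 of 6 libraries. *Tead1*, *Tead2* and *Wwtr1* could not be ordered, since their ranges overlapped and *Tead2* was above *Wwtr1* in 2 libraries only. *Wwtr1* was above *Ccn2* in 6 of 6 libraries although their ranges overlapped.

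Ratios within a library do not depend on its total. *Amotl2* over *Amot*, another angiomotin gene, was 0.709, 0.568 and 0.706 with atorvastatin and 0.875, 0.959 and 1.07 in control. *Amotl2* over *Yap1* was 0.589, 0.458 and 0.544 with atorvastatin and 0.610, 0.690 and 0.831 in control. Both ratios were lower in all 3 atorvastatin libraries than in any control library, by a wider gap against *Amot*. The exact permutation test gave a two-sided p = 0.1 for each, the smallest that 3 against 3 allows. Both ratios carry the *Amotl2* values given above, so they are not independent of that difference. The mean of *Amot* was itself higher with atorvastatin. *Lats2* over *Lats1* was 0.1, 0.103 and 0.128 with atorvastatin and 0.142, 0.147 and 0.119 in control, and these groups overlapped (exact permutation p = 0.2).

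**Figure D3:**
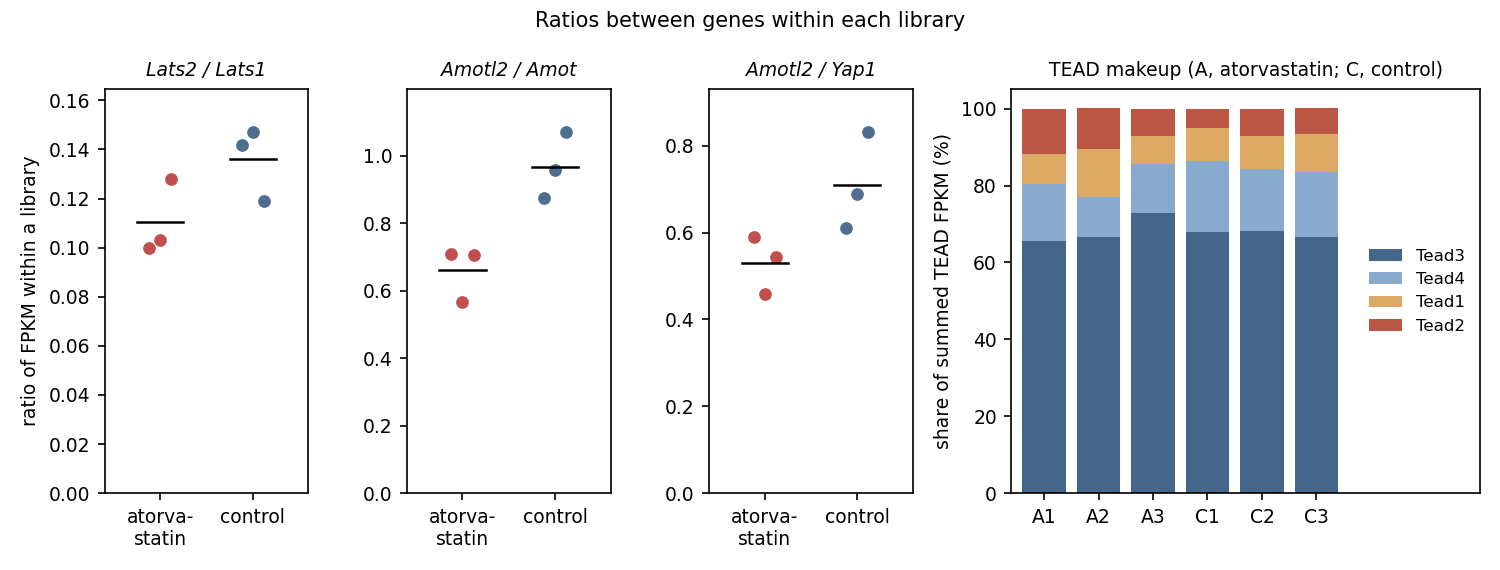
The left panels show ratios of FPKM within each library (points, with the mean as a line; atorvastatin left, control right), and the right panel shows the percent of summed TEAD FPKM from each TEAD gene in each library. *Amotl2* over *Amot* runs from 0.568 to 0.709 with atorvastatin, below the control values of 0.875 to 1.07, and *Tead3* makes up 65.6% or more of the TEAD sum throughout.

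*Amotl2*, *Lats2* and *Ccn1* are targets through which YAP and TEAD activity is usually read, and their promoter windows are shown because TEAD factors bind the letters GGAATG. The windows are from RefSeq (GRCm38.p6) and run from 250 bases before to 50 bases after an annotated start, 5′ to 3′ along the gene, with GGAATG on either strand in capitals (CATTCC where it lies on the other strand). *Amotl2* is at chr9:102717554-102717853 on the plus strand, *Lats2* at chr14:57746074-57746373 on the minus strand and *Ccn1* at chr3:145649936-145650235 on the minus strand.
Amotl2: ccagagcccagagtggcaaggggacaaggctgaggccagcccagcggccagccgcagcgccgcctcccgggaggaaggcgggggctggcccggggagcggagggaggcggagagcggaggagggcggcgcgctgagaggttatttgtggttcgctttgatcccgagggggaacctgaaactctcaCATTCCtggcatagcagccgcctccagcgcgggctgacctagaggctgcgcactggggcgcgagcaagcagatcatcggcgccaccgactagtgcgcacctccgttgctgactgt
Lats2: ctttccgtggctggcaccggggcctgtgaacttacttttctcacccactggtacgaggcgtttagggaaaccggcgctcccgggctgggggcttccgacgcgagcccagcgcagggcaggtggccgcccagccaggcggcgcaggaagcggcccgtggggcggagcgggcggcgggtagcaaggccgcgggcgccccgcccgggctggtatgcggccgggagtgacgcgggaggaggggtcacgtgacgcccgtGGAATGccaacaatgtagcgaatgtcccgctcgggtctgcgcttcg
Ccn1: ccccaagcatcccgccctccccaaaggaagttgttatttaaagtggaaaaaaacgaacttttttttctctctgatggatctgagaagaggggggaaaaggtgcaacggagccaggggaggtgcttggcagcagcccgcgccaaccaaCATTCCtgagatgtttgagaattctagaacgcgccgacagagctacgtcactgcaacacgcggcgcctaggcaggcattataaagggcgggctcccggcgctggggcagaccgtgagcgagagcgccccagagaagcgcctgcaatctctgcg

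The match began 65 bases before the start in *Amotl2*, 103 bases before it in *Ccn1* and 4 bases after it in *Lats2*. Windows were at hand for 8 of the 10 genes, all but *Tead1* and *Ccn2*, and 6 of the 8 held at least 1 match: these 3 and *Yap1*, *Wwtr1* and *Tead3*. *Tead3* and *Wwtr1* have several windows that overlap, while *Lats1* and *Tead2* had no match. A second *Lats2* window, at chr14:57734369-57734668, had none either. Of the other YAP targets listed further on, 3 of the 11 with a window held a match. Over all genes with a window 16.6% held a match, and over all windows 14.7%. The letters TGANTCA, which AP-1 factors such as Fos and Jun bind, were in none of the 8 genes' windows and in 8.97% of all genes. A match of letters describes the sequence and does not show that a factor binds there.

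The rest of the Hippo pathway gave no gene past the test either. Of 28 further pathway genes, mostly kinases, adaptors and upstream regulators and with *Tead4* among them, 22 were tested. Of these 22, 0 passed limma's test. At an unadjusted p under 0.05 there was 1, where 12% of all genes tested were under that value. There were 12 positive and 10 negative fold changes, between -0.22 and 0.17, with a median of 0.01, against 0.02 over all genes tested. The core kinase genes *Stk4* and *Stk3* encode MST1 and MST2. *Stk4* had 10.4 ± 0.36 FPKM with atorvastatin and 10.5 ± 0.27 FPKM in control, and *Stk3* had 8.88 ± 0.22 FPKM with atorvastatin and 8.95 ± 0.46 FPKM in control. *Nf2*, which encodes the upstream activator Merlin, had 16.9 ± 0.2 FPKM with atorvastatin and 17.2 ± 0.3 FPKM in control. The lowest p was that of *Fat1*, an atypical cadherin gene that acts upstream of the kinases. It had 25.2, 26.4 and 25.2 FPKM with atorvastatin and 30.1, 27.2 and 32.7 FPKM in control. These groups did not overlap, as in 18.1% of all genes tested (6.05% lower). The log2 fold change of *Fat1* was -0.22 ± 0.07 (limma adjusted p = 0.302). *Stk38l*, a kinase gene related to the LATS genes, had 24.0 ± 1.7 FPKM with atorvastatin and 21.5 ± 1.4 FPKM in control. *Amot* had 5.43 ± 0.25 FPKM with atorvastatin and 5.02 ± 0.41 FPKM in control, and *Wwc2*, which encodes an adaptor for the LATS kinases, had 1.74 ± 0.23 FPKM with atorvastatin and 1.98 ± 0.23 FPKM in control. *Stk38l*, *Amot* and *Wwc2* did not pass (limma adjusted p = 0.459, 0.662 and 0.678).

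A published set of conserved YAP and TAZ targets, apart from the genes above, held 17 genes. Of these 8 were tested and 0 passed limma's test (0 at an unadjusted p under 0.05, where 12% of all genes tested were). There were 2 positive and 6 negative fold changes with a median of -0.12. *Nt5e*, an ectonucleotidase gene, had 4.44 ± 0.20 FPKM with atorvastatin and 5.36 ± 0.82 FPKM in control, and the groups overlapped. *Crim1*, which encodes a membrane protein that binds bone morphogenetic proteins, had 8.41 ± 0.66 FPKM with atorvastatin and 9.63 ± 1.31 FPKM in control. *Dock5*, which encodes an exchange factor for the GTPase Rac, had 8.57 ± 0.65 FPKM with atorvastatin and 9.46 ± 0.59 FPKM in control. *Myof*, which encodes the membrane repair protein myoferlin, had a higher mean with atorvastatin, 7.73 ± 0.04 FPKM, against 7.0 ± 1.01 FPKM in control. Their adjusted p-values were 0.439, 0.567, 0.542 and 0.638 by limma. *Ankrd1*, a target much used in cultured cells, was listed at 0 in all 6 libraries.

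Genes raised in YAP-dependent repair of mouse gut epithelium included the lowest adjusted p-value of the pathway and target lists. Of the 10 genes 7 were tested, and 0 passed limma's test. At an unadjusted p under 0.05 there were 2, both lower with atorvastatin, where 12% of all genes tested were under that value (4.27% lower). There were 2 positive and 5 negative fold changes with a median of -0.19. *Clu*, which encodes clusterin and marks regenerative stem cells, had 0.944, 0.780 and 0.818 FPKM with atorvastatin and 1.82, 1.48 and 2.10 FPKM in control. The groups were well apart, with the highest atorvastatin library below the lowest control library. The log2 fold change was -0.60 ± 0.10 (limma adjusted p = 0.067, and 0.062 to 0.28 over the alternatives). Every atorvastatin library was under 1 FPKM, so *Clu* met the filter through the control libraries alone. With no filter its limma adjusted p was 0.28. The log2 fold change of *Clu* was -0.99 with a pseudocount of 0.1, and -0.52 to -0.68 without 1 library. *Ly6a*, which encodes the surface protein SCA-1, a marker of the repairing epithelium that is also induced by interferon and made by lymphocytes, had 50.6, 61.9 and 43.8 FPKM with atorvastatin and 76.1, 65.8 and 100.4 FPKM in control. Those groups did not overlap either, as in 18.1% of all genes tested (6.05% lower), though control replicate 2 lay close to atorvastatin replicate 2 (log2 fold change -0.62 ± 0.18, limma adjusted p = 0.248). *Ly6a* belongs to a family of similar genes, so its own level is uncertain. The leukocyte sum was lower with atorvastatin in the same libraries. Among the controls it was lowest in replicate 3, the deepest library and the highest for both *Clu* and *Ly6a*. What part leukocytes had in both differences was not tested.

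*Areg*, which encodes the growth factor amphiregulin, had 215 ± 19.5 FPKM with atorvastatin and 245 ± 22.8 FPKM in control, and *Edn1*, which encodes endothelin, 166 ± 19.0 FPKM with atorvastatin and 212 ± 45.9 FPKM in control. Both overlapped between the groups (limma adjusted p = 0.487 and 0.507). *Anxa1*, which encodes annexin A1, stood at 88.3 ± 9.9 FPKM with atorvastatin and 87.6 ± 7.5 FPKM in control (limma adjusted p = 0.98). *Ereg* and *Il1rn*, the other tested genes of the list, did not pass (limma adjusted p = 0.827 and 0.818), and the 3 genes not tested lay under the filter.

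**Figure D4:**
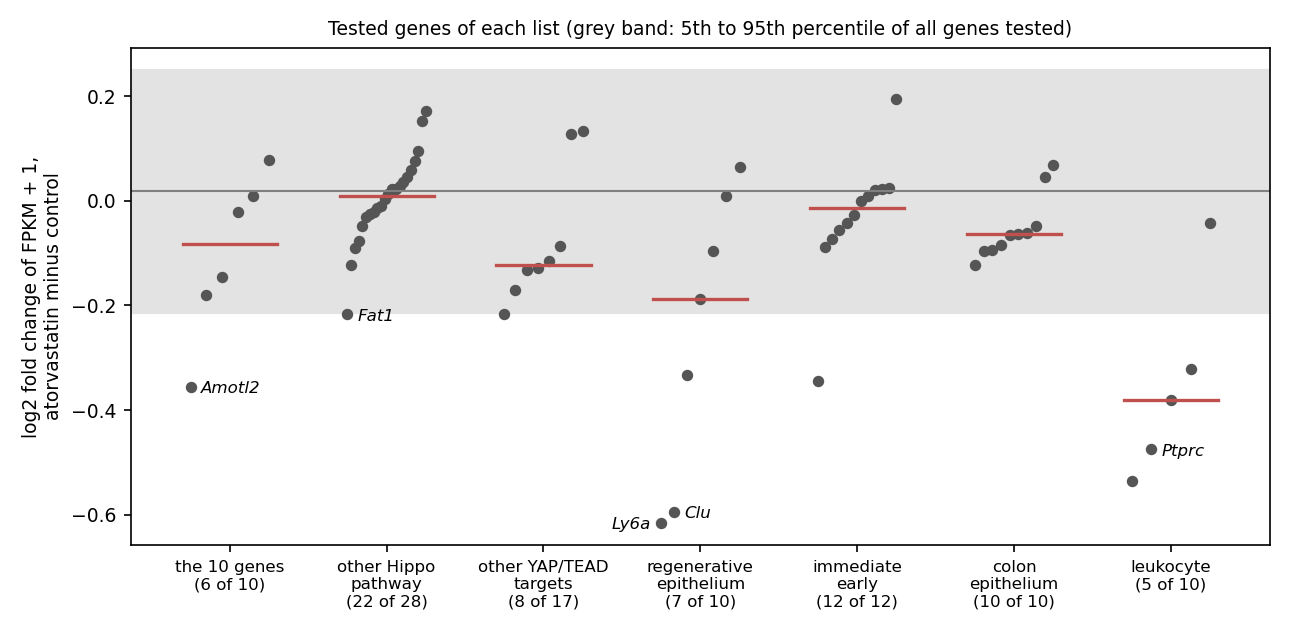
Log2 fold change of FPKM + 1 (atorvastatin minus control) of each tested gene by list, colon epithelium and leukocyte markers included, with the number tested of the number listed under each name, the list median in red, and the median and the 5th to 95th percentile of all genes tested as a grey line and band. *Clu* at -0.60 and *Ly6a* at -0.62 lie lowest, and most genes of the Hippo pathway lie within the band.

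Immediate early genes, to which *Ccn1* also belongs, were abundant in every library, and none passed limma's test. All 12 were tested and 0 had an adjusted p under 0.05 (0 at an unadjusted p under 0.05, where 12% of all genes tested were). There were 5 positive and 7 negative fold changes, with a median of -0.01. *Fos*, a subunit of AP-1, stood at 978 ± 28.8 FPKM with atorvastatin and 979 ± 6.8 FPKM in control, and *Atf3*, a stress-induced factor, at 758 ± 56.8 FPKM with atorvastatin and 772 ± 55.0 FPKM in control. The heat shock gene *Hspa1a* had 53.01, 100.4 and 70.3 FPKM with atorvastatin and 69.9, 80.1 and 138 FPKM in control, a wide spread within each group. *Fosb* had 161 ± 28.3 FPKM with atorvastatin and 139 ± 6.3 FPKM in control (limma adjusted p = 0.62). *Dusp1*, a phosphatase gene, had 89.4 ± 2.7 FPKM with atorvastatin and 94.1 ± 5.6 FPKM in control, and *Klf6*, a zinc finger factor gene, 387 ± 30.5 FPKM with atorvastatin and 411 ± 40.9 FPKM in control. The part of cell isolation in the level of *Ccn1* was not tested.

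Over the 6 libraries, the pattern of *Yap1* was most like that of *Actr1b*, *Ppp1r14b* and *Ascc3*, with Pearson r of log2(FPKM + 1) of 0.974 to 0.976 among 6625 genes averaging 5 FPKM or more. That of *Ccn1* was most like *Enc1*, *Tmem106c* and *Iffo2*, at 0.967 to 0.981. All 6 were highest in control replicate 3, the deepest library, which was also the highest for *Yap1*, *Wwtr1*, *Amotl2* and *Ccn1*. As a description over 6 points this says little of single genes, since 74 genes reached an r of 0.9 with *Yap1* and 36 with *Ccn1*.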

How the data were processed

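RNA was sequenced from 3 atorvastatin and 3 control libraries of colon epithelial cells. The authors deposited 1 FPKM value per gene and library (fragments divided by gene length and by the mapped total), for 52550 Ensembl identifiers. The submitters' processing notes name FastQC 0.11.2, Bowtie and mm10. How fragments were assigned to genes, with which annotation and strand setting, is not given in the sources used here.

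From these values, atorvastatin minus control differences of log2(FPKM + 1) were fitted by limma 3.58.1 in R 4.3.3 (trended, robust empirical Bayes, two-sided). The fit took the 11644 genes that reached 1 FPKM in 3 or more libraries. A fold change on this scale understates that of low genes. P-values were Benjamini-Hochberg adjusted over all of these genes, with a threshold of 0.05. Errors (±) are standard errors for log2 fold changes and SDs of 3 libraries for FPKM. The fit was tested on simulated data with 200 changed genes. A table of symbols covered 99.72% of the identifiers. Coordinates came from GENCODE M21 on GRCm38, the assembly that mm10 denotes.

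FPKM files carry no read totals. FPKM multiplied by annotated length in kilobases, over 12560 genes with a single transcript longer than 800 bases, gathered at whole multiples of a step in each library. Between 42.4% and 45.0% of low values lay within 0.05 of a whole multiple, where an even spread gives 10%. The step puts the depth at 36700000 to 37300000 fragments in 5 libraries and at 41900000 in control replicate 3. Fragment numbers below are such estimates, made with the longest annotated transcript. They are not counts, and no count model was run on them.

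The 10 genes and the further lists were chosen with earlier results of these data known. All 10 genes are described, and from each other list up to 4 tested genes with the smallest p are named; *Stk3*, *Stk4*, *Nf2*, *Ankrd1*, *Anxa1*, *Fos*, *Atf3* and *Tead4* are named for their roles, after their values were seen. The 16 alternatives are given in the closing section.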

Additional observations from a re-analysis of the deposited data

How the results depend on the processing

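The number of genes past the threshold, 0 in each of the 5 lists tested (the 10 genes, other Hippo genes, other targets, regenerative and immediate early genes), was 0 in all 80 values from the 16 alternatives. Over 93 fits of the 6 tested genes the lowest limma adjusted p was 0.297, for *Amotl2* with quantile normalization, and its log2 fold change ran from -0.44 to -0.24. The log2 fold change of *Lats1*, near 0 throughout, was -0.013 with median-ratio scaling, -0.0087 with equal totals and -0.022 to 0.0284 without 1 library, the lowest being without atorvastatin replicate 2. The count over all genes was 47 by the stated fit, 2 with no filter, 13 to 61 without 1 atorvastatin library and 7 to 72 without 1 control library. With the replicate number as a block the count over the 10 genes was 0, *Amotl2* had an adjusted p of 0.441, and 1 gene passed over all genes. Same-numbered libraries deviated with correlations of -0.139, -0.106 and 0.0136, so the numbers were not taken to pair them, and no library correlated best with its own number. The filter of 5 FPKM removed *Tead3*, *Lats2* and *Amotl2*, and the 4 genes under 1 FPKM entered the fit with no filter alone. The levels of these 4 rest on an estimated 16 to 256 fragments per library, and whether depth or the spread between libraries limits them was not tested.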

Other observations

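The filter of 1 FPKM kept 22 of 28 other Hippo genes, 8 of 17 other targets and 7 of 10 regenerative genes. Of the genes it left out of these lists, only *Amotl1*, *Axl* and *Il33* had groups that did not overlap. They were named after their values were seen. *Amotl1*, the third angiomotin gene, had 0.687, 0.795 and 0.650 FPKM with atorvastatin and 0.492, 0.416 and 0.563 FPKM in control, higher with atorvastatin where *Amotl2* was lower (limma adjusted p = 0.561 with no filter). *Axl*, a receptor kinase gene among the YAP targets, had 0.0135, 0.0211 and 0.0295 FPKM with atorvastatin and 0.0896, 0.126 and 0.0522 FPKM in control (limma adjusted p = 0.495 with no filter). *Il33*, which encodes an alarmin, had 0.666, 0.791 and 0.793 FPKM with atorvastatin and 0.493, 0.644 and 0.631 FPKM in control (limma adjusted p = 0.689 with no filter). Of the 3793 genes under the filter that averaged 0.2 FPKM or more, 15.5% had groups that did not overlap, and of all genes under it and above 0 somewhere, 9.44% did. *Axl* averaged less than 0.2 FPKM. *Limd1*, which encodes a LIM-domain protein that binds LATS kinases, had 8.92 FPKM in atorvastatin replicate 1 and 5.31 to 5.86 FPKM in the other 5 libraries.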
